A study of Mus musculus with 15 samples.

Results

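The members described here are the T cell receptor (TCR) alpha CDR3 peptides that end in the residues NQGKLI, the end encoded by the joining segment TRAJ23. They were found by matching these letters at the end of every peptide listed in 15 libraries of mouse CD8+ T cells, and 5185 of 92219 distinct CDR3s matched. The Tumour libraries held 250 of 6146 distinct CDR3s with this end, the MP libraries 1512 of 25439 and the Naive libraries 4374 of 73948. No J segment call was used, so that the name rests on the letters of the end. In the RefSeq gene table of GRCm38.p6, Traj23 is a J segment on chromosome 14 with Traj24 and Traj22 as its neighbours.

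An alpha chain is made in the thymus by joining 1 of many V segments to 1 of many J segments. Enzymes trim the ends and add nucleotides at the joint, so that the middle of the CDR3 differs from cell to cell. The first residues of the loop come mostly from the V segment and the last ones from the J segment. CDR3 loops lie over the peptide held by an MHC molecule. In these mice the beta chain is fixed by a transgene, and receptors differ in the alpha chain.

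All groups were C57BL/6 males with the transgenic TCR beta chain (TCRbtg), and each had 5 libraries. Tumour libraries came from CD8b+ CD4neg cells sorted from prostate tumours at 27 weeks of age, in mice that also carried TRAMP+/-, a transgene that drives prostate cancer. MP (memory-phenotype) cells were sorted as CD8b+ CD4neg CD44hi CD122+ and Naive cells as CD8b+ CD4neg CD44lo CD122neg, both from spleen and lymph nodes, pooled, at 9 weeks of age. The series' design text gives 5 different mice for the young animals and 5 TRAMP+/- males for the tumours, and does not say whether an MP and a Naive library of the same number share a mouse. Tumours differed from the other groups in tissue, age, TRAMP transgene and sort gate at once, and these cannot be told apart. No marker gene was measured, so that the sorts could not be checked against one.

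The values are reads per CDR3 peptide, and a list starts at 2 reads. A share is the percentage of a library's reads. Libraries held 627205 to 943699 reads (Tumour), 574484 to 881988 (MP) and 547665 to 702663 (Naive). Members held 8960 to 25969 reads (Tumour), 77373 to 128120 (MP) and 81638 to 113335 (Naive). MP 1 and MP 5 stood apart with 12401 and 13950 distinct CDR3s, against 2216 to 3392 in the other MP libraries, and results that change without them are given with that value. Reads are not cells, and more cells with a receptor and more alpha chain RNA per cell cannot be told apart.

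The peptides on which the results turn are shown with the end in place, to let the residue just before it be compared. The lists write the loop without the conserved residues at its ends.
Highest mean share in MP: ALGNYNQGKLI
Next in MP: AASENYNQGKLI
High in MP, absent from some Naive lists: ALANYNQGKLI
Highest mean share in Naive: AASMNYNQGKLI
High in Naive: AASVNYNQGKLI
Shares its first residues with the MP leader, and is high in Naive: ALMNYNQGKLI
High in MP, with 7 residues of the end and an arginine before it: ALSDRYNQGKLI
Highest mean share in Tumour: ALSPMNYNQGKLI
Listed in 3 tumours: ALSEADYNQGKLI

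CDR3s with the NQGKLI end took a much smaller part of the tumour repertoire than of the spleen and lymph node repertoires. Their read shares were 1.20, 1.32, 4.14, 1.68 and 1.46% in Tumour libraries 1 to 5. MP libraries 1 to 5 had 14.5, 13.4, 12.4, 13.5 and 16.1%. Naive libraries 1 to 5 had 14.4, 14.9, 15.7, 16.5 and 17.8%. The Tumour libraries all lay below every MP and Naive library, and MP and Naive overlapped. The mean was 1.96 ± 1.23% in Tumour, 13.98 ± 1.41% in MP and 15.85 ± 1.36% in Naive libraries (SD, n = 5 each). Tumour was lower than both, with a difference of -12.03 points from MP and of -13.9 points from Naive (each adjusted p = 0.0159, exact two-sided permutation test of 5 against 5 libraries, Benjamini-Hochberg over 6 features).

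MP differed from Naive by -1.87 points, which did not pass the test (adjusted p = 0.0952). Without MP 5 the difference was -2.40 points and passed (adjusted p = 0.0381), and without MP 1 and MP 5 together it was -2.76 points (adjusted p = 0.0429, each from an exact permutation test). Among all 6-residue ends, NQGKLI ranked 1 by reads in each of the 5 Naive libraries and 2 in each of the 5 MP libraries. In Tumour libraries 1 to 5 it ranked 14, 12, 7, 10 and 11. Counted by distinct CDR3, members were 3.55 ± 0.575% of the Tumour lists, 6.67 ± 0.569% of the MP lists and 6.96 ± 0.248% of the Naive lists (SD, n = 5 each). Tumour was lower than either by this count as well (each adjusted p = 0.0159 by the same exact test). Without MP 1 and MP 5 together, the Tumour minus MP differences of both shares kept their sign and missed the threshold (each adjusted p = 0.0714, exact permutation test, with an unadjusted p of 0.0357 that is the smallest 5 against 3 libraries allow). By distinct CDR3, MP and Naive overlapped (adjusted p = 0.325, exact permutation test).

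**Figure D1:**
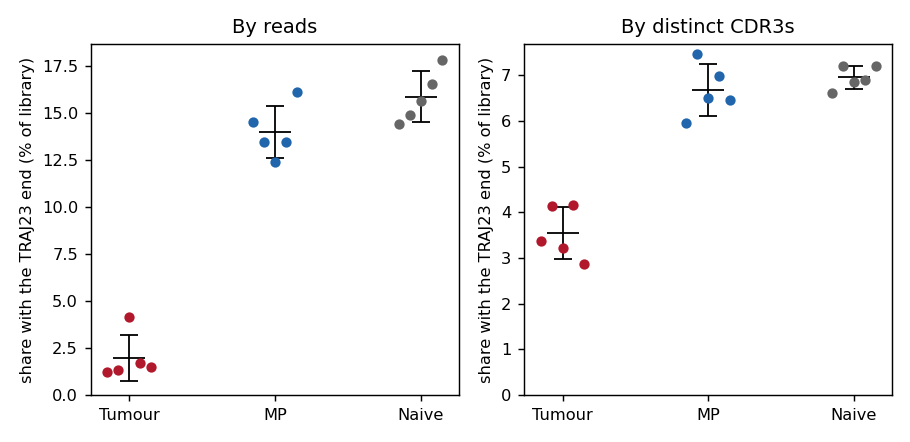
Share of CDR3s with the TRAJ23 end in each library, as % of reads (left) and as % of distinct CDR3s (right). Points are the 5 libraries of each group, and bars give the mean ± SD. The Tumour libraries lie at 1.20 to 4.14% of reads, below every MP and Naive library.

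A few abundant CDR3s can set a read share. Without the 10 most abundant CDR3s of each library, a check added after the data were seen, members took 2.24 to 3.64% of the remaining Tumour reads, 8.86 to 10.8% of MP reads and 12.7 to 15.6% of Naive reads. The Tumour libraries again lay below all others (adjusted p = 0.0159 against each, exact permutation test). MP was then lower than Naive, with a difference of -3.46 points (adjusted p = 0.00952, exact permutation test). The 10 most abundant CDR3s held 0 or 1 member in a Tumour library, 3 or 4 in an MP library and 3 or 4 in a Naive library.

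The TRAJ23 end was kept at different lengths, which separated MP from Naive. Loops with all 8 residues NYNQGKLI took 64.3, 70.9, 72.6, 67.3 and 71.8% of member reads in MP libraries 1 to 5. They took 61.9, 61.5, 61.9, 61.7 and 63.4% in Naive libraries 1 to 5. Every MP library lay above every Naive library, with a mean of 69.4 ± 3.49% in MP and 62.1 ± 0.763% in Naive (SD, n = 5 each; adjusted p = 0.0119, exact permutation test). With every distinct CDR3 weighted alike, the difference had the opposite sign, at -3.32 points (adjusted p = 0.0159, exact permutation test). Tumour libraries ranged widely, with 49.2, 62.0, 90.2, 60.4 and 38.1%, and overlapped both other groups (adjusted p = 0.325 against MP and 0.873 against Naive, exact permutation test). Loops that keep YNQGKLI without the asparagine took 37.2 ± 18.6% in Tumour, 29.9 ± 3.64% in MP and 36.2 ± 0.728% in Naive, and those that keep no more than the 6 residues NQGKLI after another residue took 2.85 ± 2.51, 0.721 ± 0.303 and 1.70 ± 0.0924% in the same 3 groups.

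Members were shorter in MP than in Naive libraries. The mean length, weighted by reads, was 11.59 ± 0.0230 residues in MP and 11.77 ± 0.0326 in Naive, with no overlap between libraries (adjusted p = 0.0119, exact permutation test). Loops of 11 residues made 38.7 ± 3.35% of member reads in MP and 19.9 ± 0.848% in Naive. Loops of 12 residues were the largest class in both, at 54.8 ± 3.71% in MP and 63.6 ± 1.52% in Naive. Loops of 13 residues took 2.88 ± 0.839% in MP and 9.23 ± 0.379% in Naive. These 3 classes and that of 10 residues did not overlap between MP and Naive (each adjusted p = 0.0119 over 6 lengths, exact permutation test).

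Tumour members were longer than MP members, with a mean of 11.96 ± 0.331 residues (adjusted p = 0.0159, and 0.0714 without MP 1 and MP 5 together, exact permutation tests), and overlapped with Naive members (adjusted p = 0.2, exact permutation test). Loops of 13 residues took 21.2, 23.1, 50.6, 5.24 and 52.6% of member reads in Tumour libraries 1 to 5, and each was above every MP library (adjusted p = 0.0476, exact permutation test). Loops of 12 residues took 29.7 ± 16.2% in Tumour and were lower than in Naive libraries, without overlap (adjusted p = 0.0476, exact permutation test). Weighted by distinct CDR3, the difference in mean length was 0.178 residues between Tumour and MP (adjusted p = 0.44) and -0.0147 between Tumour and Naive (adjusted p = 0.929, exact permutation tests).

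**Figure D2:**
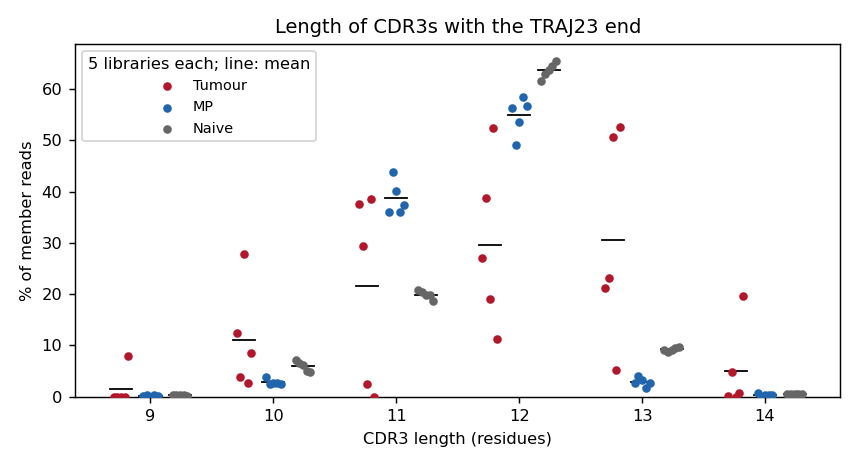
Share of member reads by CDR3 length in residues, for Tumour, MP and Naive libraries. Points are the 5 libraries of each group and lines are means. Loops of 11 residues average 38.7% in MP and 19.9% in Naive, and loops of 13 residues range from 5.24 to 52.6% in tumours.

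The residues before NQGKLI carried less positive charge in MP than in Naive. Counting lysine and arginine as positive and aspartate and glutamate as negative, the net charge per read was -0.0984 ± 0.0294 in MP and 0.0184 ± 0.0107 in Naive, without overlap (adjusted p = 0.0119, exact permutation test). By distinct CDR3 the difference was -0.0153 and did not pass (adjusted p = 0.325, exact permutation test). In Tumour libraries 1 to 5 it was -0.378, -0.198, 0.174, -0.371 and -1.03, which overlapped both (adjusted p = 0.257 against MP and 0.0714 against Naive, exact permutation test). Without Tumour 3, the differences were -0.395 from MP (adjusted p = 0.019) and -0.512 from Naive (adjusted p = 0.0238, exact permutation tests).

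The first residues of the members differed between MP and Naive. Loops that begin with AL took 41.9, 43.0, 43.0, 40.2 and 40.6% of member reads in MP libraries 1 to 5, against 23.3, 20.0, 20.6, 17.2 and 16.4% in Naive libraries 1 to 5. Loops that begin with AA took 43.2 ± 4.12% in MP and 68.9 ± 3.88% in Naive. AF loops took 5.72 ± 2.16% in MP and 1.18 ± 0.268% in Naive, and AW loops took 2.73 ± 0.619% in MP and 0.0936 ± 0.0394% in Naive. Most AW reads in MP were of a single member, AWMNYNQGKLI, at a mean of 0.365% of all reads. AI, AT and VL loops were lower in MP. These 7 of 10 classes passed, each without overlap (adjusted p = 0.0113 over 10 classes, exact permutation test). AM and AV loops overlapped between MP and Naive.

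In tumours, AA loops fell to 18.5 ± 9.66% of member reads, lower than in MP and in Naive without overlap (each adjusted p = 0.0265, exact permutation test). AF loops were listed in 1 tumour and AW loops in 1 tumour, at 0.0146 and 0.0195% of that tumour's member reads, and both classes were below MP and Naive (adjusted p = 0.0265, exact permutation test). AL loops took 41.3, 13.4, 52.3, 15.8 and 61.8% in Tumour libraries 1 to 5, a spread that covered the MP value (adjusted p = 0.651 against MP and 0.333 against Naive, exact permutation test). AV loops took 14.4 ± 12.3% in Tumour, 2.04 ± 1.15% in MP and 2.45 ± 0.250% in Naive, which did not pass after adjustment (adjusted p = 0.0595 against each, exact permutation test).

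The residue in front of YNQGKLI is the asparagine of the segment or whatever the joint put in its place. It was an asparagine in 69.9 ± 3.62% of such reads in MP and 63.1 ± 0.752% in Naive libraries (adjusted p = 0.0136 over 12 residues, exact permutation test). Arginine stood there in 12.2, 10.7, 10.6, 11.2 and 7.64% of reads in MP libraries 1 to 5. In Naive libraries 1 to 5 the arginine values were 2.36, 2.07, 1.94, 2.25 and 1.82%, and no library overlapped (adjusted p = 0.0136, exact permutation test). Most of the MP arginine reads were of a single member, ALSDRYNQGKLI. It took 1.70, 1.40, 1.22, 1.30 and 1.18% of all reads in MP libraries 1 to 5. All members together took 14.5, 13.4, 12.4, 13.5 and 16.1% there. The higher arginine share in MP therefore rests mainly on this member. Serine was higher in MP, at 4.59 ± 0.891% against 3.17 ± 0.316% in Naive (adjusted p = 0.0238, exact permutation test). Glycine was lower in MP, at 7.29 ± 1.07% against 15.8 ± 0.274% in Naive, and glutamate, histidine, phenylalanine and valine were lower in MP too, each without overlap (adjusted p = 0.0136, exact permutation test).

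In tumours the aspartate share in this place was 7.21, 17.1, 0.258, 8.28 and 54.1%, against 2.11 ± 0.597% in MP and 2.84 ± 0.193% in Naive. It overlapped both (adjusted p = 0.0952 against MP and 0.0816 against Naive, exact permutation test). Serine was lower in tumours than in either, at 0.578 ± 0.962% (adjusted p = 0.0317 against MP and 0.019 against Naive, exact permutation test). Valine in this place was not listed in any tumour and was lower than in both groups by the same tests.

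Among loops that keep all 8 residues of the end, the residue joined to it differed most between MP and Naive for methionine, glycine and glutamate. This split was chosen after values were seen and is given as a description, without a test. Methionine was joined in 17.5, 21.6, 15.7, 16.5 and 15.3% of such reads in MP libraries 1 to 5, against 51.9, 51.2, 51.9, 49.7 and 49.3% in Naive libraries 1 to 5. Glycine was joined in 26.9 ± 1.37% in MP and 4.83 ± 0.416% in Naive. Glutamate was joined in 23.7 ± 5.07% in MP and 6.19 ± 0.429% in Naive. Alanine took 11.9 ± 1.54% in MP and 5.81 ± 0.461% in Naive, and valine 3.13 ± 1.06% in MP and 10.7 ± 1.02% in Naive. By distinct CDR3 over the lists of a group, methionine made 27.1% of 107 such members in Tumour, 26.9% of 613 in MP and 35.1% of 1878 in Naive, and glycine made 9.35, 8.65 and 9.37% of them. The glycine share by distinct CDR3 was thus within 1 point across groups, and its read share was not. Most such MP reads with glycine were of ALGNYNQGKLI, with glutamate of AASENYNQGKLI and with alanine of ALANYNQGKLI. These members took 2.53, 2.13 and 1.03% of all reads in MP on average. The higher MP read shares of these residues therefore rest mainly on single members.

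**Figure D3:**
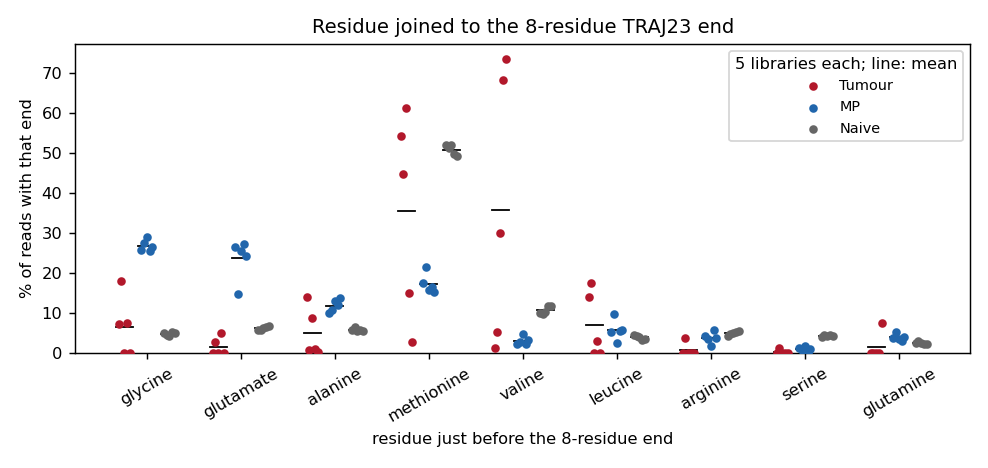
Residue joined to the 8-residue TRAJ23 end, as % of the reads with that end, for Tumour, MP and Naive libraries. Points are the 5 libraries of each group and lines are means. Methionine leads in every Naive library, glycine and glutamate are high in MP, and valine reaches 68.2 and 73.5% in 2 tumours.

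Tumours were uneven in this residue. Methionine was joined in 54.2, 44.6, 61.3, 15.002 and 2.74% of such reads in Tumour libraries 1 to 5. Valine was joined in 1.18, 5.22, 30.0, 68.2 and 73.5%. Tumour 3 was high in both, Tumours 4 and 5 were high in valine, and Tumours 1 and 2 were high in methionine.

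The frame that begins AL and has 1 further residue before NYNQGKLI showed the difference by residue in single CDR3s. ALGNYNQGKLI took 2.36, 2.52, 2.59, 2.23 and 2.96% of all reads in MP libraries 1 to 5. It took 0.0571, 0.0161, 0.0192, 0.0652 and 0.0726% in Naive libraries 1 to 5. The groups were far apart (log2 fold change 5.78, SE 0.60; adjusted p = 0.000522, edgeR's quasi-likelihood test over all CDR3s, Benjamini-Hochberg). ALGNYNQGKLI was the most abundant member in 4 of the MP libraries.

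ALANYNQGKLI took 0.868, 0.994, 0.911, 0.982 and 1.42% in MP libraries 1 to 5. In Naive it was listed in 3 libraries, at 0.000543 to 0.00157%, so that its MP reads were what let it be tested. The MP mean was 1640-fold the Naive mean (log2 fold change 10.63 ± 1.39, SE; edgeR adjusted p = 0.000662). ALMNYNQGKLI, with methionine in the same place, went the other way, with a mean of 0.0229 ± 0.0283% in MP and 0.491 ± 0.0419% in Naive (SD, n = 5 each). Its log2 fold change was -4.42 ± 1.69 (SE; edgeR adjusted p = 0.0432), and the call was lost when any 1 Naive library, MP 4 or MP 5 was left out (adjusted p from 0.0516 to 0.0774), and without MP 1 and MP 5 together (adjusted p = 0.0654). The frame as a whole held 16 members and took 0.0200 ± 0.0356% of reads in Tumour, 3.68 ± 0.471% in MP and 0.571 ± 0.0459% in Naive.

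The frame AAS with 1 further residue before NYNQGKLI held 18 members, and its summed share was closer between MP and Naive, at 2.53 ± 0.550% in MP and 3.73 ± 0.616% in Naive, with 0.0467 ± 0.0652% in Tumour. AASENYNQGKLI took 2.32, 1.28, 2.11, 2.26 and 2.70% in MP libraries 1 to 5, against 0.375, 0.396, 0.471, 0.504 and 0.597% in Naive libraries 1 to 5. Every MP library was above every Naive library, and the log2 fold change was 2.18 (SE 0.37; edgeR adjusted p = 0.000811). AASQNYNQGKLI took 0.314 ± 0.0660% in MP and 0.181 ± 0.0202% in Naive, without overlap, but was not called (log2 fold change 0.79 ± 0.38, SE; edgeR adjusted p = 0.0957).

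With methionine, the same frame led the Naive repertoire. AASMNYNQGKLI had 0.138% in MP 3, 0.000731 to 0.000794% in MP 1, 2 and 5 and was not listed in MP 4, so that the MP mean of 0.0281% came from MP 3. It took 1.18, 1.25, 1.44, 1.55 and 1.77% in Naive libraries 1 to 5. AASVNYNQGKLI took 0.0119 ± 0.0261% in MP and 0.802 ± 0.173% in Naive, with 0.0585% in MP 5 and at most 0.000907% in the other MP libraries. Both were called lower in MP (log2 fold change -5.67 ± 2.00, SE, edgeR adjusted p = 0.0315 for methionine, and -6.07 ± 2.21, SE, adjusted p = 0.0348 for valine). Neither call held without any single one of the Naive libraries (adjusted p from 0.0509 to 0.0532 for methionine and from 0.0563 to 0.0594 for valine). The methionine call was also lost without MP 1 and MP 5 together (adjusted p = 0.0608), and the valine call without MP 1 (adjusted p = 0.0583). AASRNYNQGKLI was lower in MP as well, at 0.0043 ± 0.0088% against 0.303 ± 0.0707% in Naive (log2 fold change -6.14 ± 1.82, SE; edgeR adjusted p = 0.0146). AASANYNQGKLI, at 0.0116 ± 0.0219% in MP and 0.326 ± 0.0351% in Naive, and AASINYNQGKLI, at 0.0219 ± 0.0403% in MP and 0.0558 ± 0.0136% in Naive, were not called (edgeR adjusted p = 0.0584 and 0.564), and without MP 3 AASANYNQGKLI was (adjusted p = 0.0122).

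**Figure D4:**
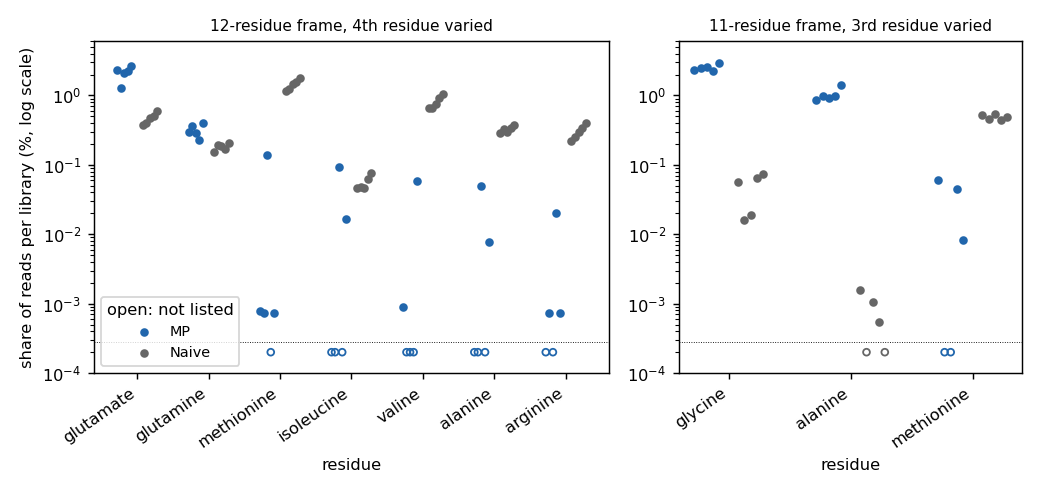
Shares of single members in MP and Naive libraries for the AAS frame (left) and the AL frame (right), with the residue in the varied place on the x axis and % of reads on a log y axis. Points are libraries, and open points below the dotted line mark libraries that do not list the member. Glutamate in the AAS frame, and glycine and alanine in the AL frame, are high in MP, and methionine is high in Naive in both.

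The other members at the head of the MP repertoire were of several kinds. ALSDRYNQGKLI, with arginine before YNQGKLI, took 1.70, 1.40, 1.22, 1.30 and 1.18% in MP libraries 1 to 5, against 0.0407 to 0.0751% in the Naive libraries (log2 fold change 4.48 ± 0.41, SE; edgeR adjusted p = 0.000278). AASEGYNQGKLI took 0.618 ± 0.203% in MP and 0.173 ± 0.0129% in Naive. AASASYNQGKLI took 0.450 ± 0.116% in MP and 0.0368 ± 0.0127% in Naive. AFMNYNQGKLI and AWMNYNQGKLI, in which methionine is joined to the 8-residue end, took 0.437 ± 0.175 and 0.365 ± 0.0753% in MP, against 0.0930 ± 0.0104 and 0.00648 ± 0.00416% in Naive. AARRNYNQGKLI took 0.339 ± 0.121% in MP and 0.0241 ± 0.00327% in Naive. All of these were called higher in MP (edgeR adjusted p from 0.000662 to 0.00263), and their libraries did not overlap. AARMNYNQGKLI was among the 10 highest in both groups, at 0.448 ± 0.199% in MP and 0.511 ± 0.109% in Naive, and was not called (edgeR adjusted p = 0.739).

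At the head of the Naive repertoire, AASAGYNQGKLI took 0.0104, 0.0358, 0.00105, 0.0346 and 0.00804% in MP libraries 1 to 5, against 0.762, 0.885, 0.942, 0.989 and 1.03% in Naive libraries 1 to 5. All MP libraries listed it and all lay far below (log2 fold change -5.68 ± 0.92, SE; edgeR adjusted p = 0.000752). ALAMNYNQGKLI was listed in 2 MP libraries, with a mean of 0.00157 ± 0.00249%, against 0.732 ± 0.0747% in Naive (edgeR adjusted p = 0.00241). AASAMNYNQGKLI took 0.00267 ± 0.00542% in MP and 0.375 ± 0.0690% in Naive (edgeR adjusted p = 0.011). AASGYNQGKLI had 3 reads in MP 5 and was not listed in the other MP libraries, against 13993 reads over the Naive libraries. Its pooled share was 5404-fold higher in Naive, with a 95% counting interval of 1849 to 26209 (exact binomial; reads without stated molecular identifiers, so that it covers counting error only).

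The 10 members with the highest mean share in MP took 69.4 ± 1.47% of member reads in MP and 8.92 ± 0.604% in Naive. The 10 highest of Naive took 19.0 ± 3.28% of member reads in MP and 41.1 ± 1.35% in Naive. Each list was picked by its shares in its own group, so that it had to stand high there. The lists share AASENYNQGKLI and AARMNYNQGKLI. Member reads were thus spread over fewer peptides in MP, and the Shannon entropy of their shares was 4.87 ± 0.283 bits in MP and 7.10 ± 0.0764 bits in Naive (adjusted p = 0.0119, exact permutation test). Tumours had 3.43 ± 1.26 bits, lower than Naive without overlap (adjusted p = 0.0159) and not past the threshold against MP (adjusted p = 0.0595, exact permutation tests). Without Tumour 2, the Tumour minus MP difference was -1.87 bits and passed (adjusted p = 0.0238, exact permutation test).

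A test of each CDR3 between MP and Naive was possible for members with at least 10 reads in at least 3 of the 10 libraries. Of the 5185 members, 577 passed this filter. A member that passed it through 1 group alone was tested because it was high there, which favoured a call. All tested members not listed in 1 of the groups were called, 9 higher and 233 lower. Their calls therefore add nothing to the listing. For members listed in both groups a call was not fixed. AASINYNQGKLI passed through Naive alone, being listed in 2 MP libraries, and was not called (edgeR adjusted p = 0.564). The 210 members not called were all listed in both groups. Among these 577, 39 were called higher in MP (6.76%, where 12.6% of all 5954 CDR3s tested were) and 328 were called lower (56.9%, where 48.1% of all were; edgeR adjusted p under 0.05). In both directions together 367 were called (63.6%, where 60.7% of all were). The median log2 fold change was -5.23 over the members and -3.35 over all CDR3s tested. With unlisted CDR3s set to 3 reads per library, the medians of the log2 ratio of mean shares were -2.56 and -2.19. Of the 328, 233 were not listed in any MP library, which was not counted over all CDR3s called and cannot be read as particular to this end. The 39 took 76.9 ± 1.70% of member reads in MP and 6.33 ± 0.337% in Naive. The 328 took 1.09 ± 0.275% in MP and 69.1 ± 0.790% in Naive. Both sums rest on the reads that made the calls, so that they had to separate and are a description. The number called higher was 25 without Naive 1, without Naive 3 or without Naive 5, and 20 without MP 1 and MP 5 together.

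**Figure D5:**
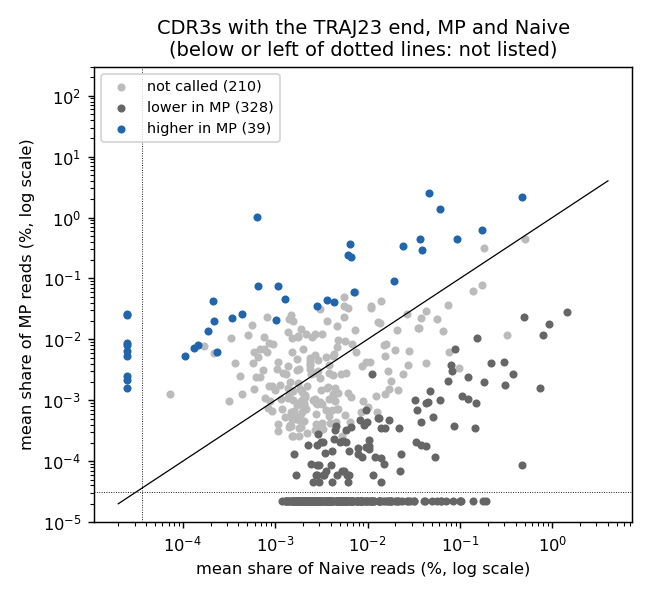
Mean share in MP libraries (y) and in Naive libraries (x) of the 577 members tested, both as % of reads on log axes. Colours mark the 39 members called higher in MP, the 328 called lower and the 210 not called. Points below or left of the dotted lines were not listed in that group, and the diagonal marks equal shares.

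By the residue joined to the 8-residue end, 2 of 98 tested members with methionine were called higher in MP and 64 lower. The higher pair was AFMNYNQGKLI and AWMNYNQGKLI. Of 25 tested with glycine, 2 were higher and 20 lower. Of 13 with glutamate, 2 were higher and 3 lower. By first residues, 21 of 292 tested AA loops were higher and 182 lower, and 10 of 117 AL loops were higher and 59 lower. These are shares of 2.04% higher and 65.3% lower for methionine, 8% and 80% for glycine, 15.4% and 23.1% for glutamate, 7.19% and 62.3% for AA and 8.55% and 50.4% for AL, where 12.6% of all CDR3s tested were higher and 48.1% lower. The split by class was not tested.

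The largest folds toward MP among called members listed in both groups followed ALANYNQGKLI. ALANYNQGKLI and those given next could not have met the filter without their MP reads, where they were high, which favoured their calls. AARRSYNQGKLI took 0.0424 ± 0.0133% in MP and 0.000212 ± 0.000313% in Naive (log2 fold change 7.54 ± 1.38, SE; edgeR adjusted p = 0.00121). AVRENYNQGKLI had a mean of 0.0749% in MP, with 0.0593, 0.124, 0.121 and 0.0702% in MP 1, 2, 3 and 5 and none listed in MP 4, and 0.000651% in Naive (edgeR adjusted p = 0.0182). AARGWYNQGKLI was listed in 4 MP libraries and 1 Naive library (edgeR adjusted p = 0.0215), and lost its call without Naive 1, 2, 3 or 5 (adjusted p from 0.0505 to 0.0516). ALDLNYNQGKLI was listed in 3 MP and 3 Naive libraries (edgeR adjusted p = 0.045), and lost it without any 1 Naive library, MP 1, MP 2 or MP 5 and without MP 1 and MP 5 together (adjusted p from 0.0547 to 0.0993). The 5 largest folds toward Naive were those of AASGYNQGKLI, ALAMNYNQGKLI, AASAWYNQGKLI, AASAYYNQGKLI and AAKMNYNQGKLI. Each was listed in 1 MP library, or in 2 for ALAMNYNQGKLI, at no more than 0.0057%, against Naive means of 0.466, 0.732, 0.0543, 0.145 and 0.0225%. These could not have met the filter without their Naive reads, which favoured their calls likewise. AAKMNYNQGKLI had 3 MP reads, so that its pooled share was 263-fold higher in Naive with a 95% counting interval of 89.6 to 1279 (exact binomial). AIVNYNQGKLI was lower too, with 0.000181% in MP, all from MP 1, and 0.0376 ± 0.00469% in Naive (edgeR adjusted p = 0.00241).

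Most members of a group were listed in 1 of its 5 libraries, but in MP and Naive the members listed in all 5 held most of the member reads. Members listed in 1 library were 89.6% of the 250 in Tumour lists, 72.0% of the 1512 in MP lists and 60.0% of the 4374 in Naive lists. Among the other CDR3s these values were 85.8% in Tumour, 77.7% in MP and 69.2% in Naive. In MP, 42 (2.78%) were in all 5 libraries and held 80.7 ± 1.61% of member reads. Of the other CDR3s of MP, 1.84% were in all 5 and held 63.4 ± 1.66% of their reads. In Naive, 482 were in all 5 and held 91.3 ± 0.626%. In Tumour, none was in all 5. Among the other 5896 CDR3s of the tumours, 70 (1.19%) were in all 5 and held 35.99 ± 9.42% of their reads. At that share few of 250 members would be in all 5, so that their absence is not read as particular to this end. No member was listed in all 15 libraries.

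Likeness of read shares was measured with the Morisita-Horn index (1 when identical, 0 when no peptide is shared). Over the members it averaged 0.0519 between tumours (0.000287 to 0.332 over 10 pairs), 0.962 between MP libraries and 0.985 between Naive libraries. It averaged 0.152 between MP and Naive, 0.0355 between Tumour and MP, and 0.0340 between Tumour and Naive (25 pairs each). Over the other CDR3s it was 0.222 between tumours, 0.911 between MP libraries, 0.974 between Naive libraries, 0.0354 between MP and Naive, 0.00753 between Tumour and MP, and 0.00239 between Tumour and Naive. These values share libraries between pairs and are given without a test.

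The leading members of the tumours were mostly of 1 tumour. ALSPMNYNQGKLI took 2.07% of the reads of Tumour 3 and was not listed in the other tumours, with 0.000497% in MP and 0.00165% in Naive on average. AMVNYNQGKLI took 0.600% of Tumour 4 alone, and was listed in 3 MP and all Naive libraries. ADMNYNQGKLI led Tumours 1 and 2 with 0.261 and 0.144% and was not listed in the other tumours, with means of 0.000867% in MP and 0.00179% in Naive. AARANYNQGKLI and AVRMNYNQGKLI took 0.321 and 0.216% of Tumour 3. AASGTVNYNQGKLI took 0.285% of Tumour 5 and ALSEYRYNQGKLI 0.195% of Tumour 1, and neither was listed in any MP or Naive library. None of these 7 was called between Tumour and either other group, or it had too few libraries to be tested. Without Tumour 4, the only tumour that listed it, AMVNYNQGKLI was called lower in Tumour than in MP and Naive (edgeR adjusted p = 0.0308 and 0.000597). Leaving out its only carrier set that direction, so that the call is no support. Without Tumour 3, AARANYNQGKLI was called lower than in MP and Naive (adjusted p = 0.0241 and 0.00117, edgeR) and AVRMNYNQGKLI lower than in Naive (adjusted p = 0.00153, edgeR). Tumour 3 was the only tumour that listed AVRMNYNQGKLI, so that the same holds for its call. ADMNYNQGKLI was called higher than in Naive when Tumour 3, 4 or 5 was left out (edgeR adjusted p from 0.0299 to 0.0313). None of these tumours listed it, so that the call came from leaving out a tumour without it and is no support.

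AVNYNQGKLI, in which only the AV start precedes the 8-residue end, was listed in 3 tumours, with 1.12% in Tumour 3, 0.0405% in Tumour 4 and 0.124% in Tumour 5. Its mean was 0.257 ± 0.485% in Tumour, 0.00361 ± 0.00503% in MP and 0.0088 ± 0.00267% in Naive (SD, n = 5 each). It was not called against MP (edgeR adjusted p = 0.0875) or Naive (edgeR adjusted p = 0.0587), and was called against Naive without Tumour 1 or without Tumour 2 (edgeR adjusted p = 0.0201 and 0.0208). Neither of these tumours listed it, so that the call came from leaving out a tumour without it and is no support.

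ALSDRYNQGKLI was the member listed in most tumours, at 0.00429, 0.0103, 0.0719 and 0.0756% in Tumours 1, 2, 3 and 5. Its Tumour mean of 0.0324 ± 0.0379% was below the MP mean of 1.36 ± 0.206% (log2 fold change -5.39 ± 1.83, SE; edgeR adjusted p = 0.0183, and 0.0562 without MP 1 and MP 5 together) and was not called against the Naive mean of 0.0608 ± 0.0132% (log2 fold change -0.91 ± 1.28, SE; edgeR adjusted p = 0.51).

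Between Tumour and MP, 129 members passed the filter, of which 2 were called higher (1.55%, where 7.68% of all 1666 CDR3s tested were) and 92 lower (71.3%, where 66.0% of all were; edgeR adjusted p under 0.05), 94 in both directions together (72.9%, where 73.7% of all were). Between Tumour and Naive, 489 passed, of which 2 were higher (0.409%, where 3.38% of all 4671 were) and 448 lower (91.6%, where 86.7% of all were), 450 in both directions together (92.0%, where 90.1% of all were). Against MP the number called lower was 45 without MP 1 or without MP 5, and without both it was 16, with 0 called higher by edgeR (2 had an unadjusted p under 0.05, and DESeq2 on all libraries called 2). Against Naive, 1 was called higher without Tumour 1 or without Tumour 2. Both comparisons share the Tumour libraries. The median log2 fold change over members was -8.46 against MP and -7.69 against Naive, and over all CDR3s tested it was -7.57 and -7.42. With unlisted CDR3s set to 3 reads per library, the medians of the log2 ratio of mean shares were -4.41 for members and -3.76 for all against MP, and -3.51 and -3.16 against Naive. Of the 92, 83 were not listed in any tumour, and of the 448, 417 were not. The same was not counted over all CDR3s called, so that these counts cannot be read as particular to this end. All members not called, 35 against MP and 39 against Naive, were listed in both groups. A tested member not listed in any tumour was thus always called lower, and its call adds nothing to the listing.

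The same pair was called higher in both comparisons. Both passed the filter through the Tumour libraries alone, with at most 7 reads in any MP or Naive library, so that the filter let them be tested only because they were high in tumours. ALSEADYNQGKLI took 0.00777, 0.00912 and 0.746% in Tumours 1, 2 and 5 and was not listed in Tumours 3 and 4, with a mean of 0.000159% in MP, all from MP 1, and 0.000325% in Naive. Its log2 fold change was 9.72 ± 3.42 against MP (SE; edgeR adjusted p = 0.0203) and 8.82 ± 3.01 against Naive (SE; edgeR adjusted p = 0.0181). The Tumour mean came mostly from Tumour 5, and the call against MP was lost without MP 2, 3, 4 or 5 (edgeR adjusted p from 0.0538 to 0.0577) and without MP 1 and MP 5 together (adjusted p = 0.0910). Without Tumour 1, 2 or 5 it no longer passed the filter and was not tested. The other, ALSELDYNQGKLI, was named after its values were seen. It differs from it at 1 residue, had 0.0275, 0.0224 and 0.00159% in Tumours 1, 2 and 4, and was not listed in any MP or Naive library (edgeR adjusted p = 0.0184 against MP and 0.023 against Naive). Its call against MP was lost without MP 1 and MP 5 together (edgeR adjusted p = 0.0814), and without Tumour 1, 2 or 4 it was not tested.

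The members that led the MP repertoire were rare in tumours. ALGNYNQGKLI was listed in Tumours 3 and 4, with 0.000319 and 0.0143%, and fell to a mean of 0.00293% in Tumour, against 2.53% in MP (log2 fold change -9.75 ± 2.66, SE; edgeR adjusted p = 0.0152). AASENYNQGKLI was listed in Tumour 4 alone, at 0.0179%, and was lower than in MP (edgeR adjusted p = 0.0166, and 0.0525 without MP 1 and MP 5 together) and Naive (edgeR adjusted p = 0.0181). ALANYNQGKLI was listed in Tumour 1 alone, at 0.0828%, and was not called against MP (edgeR adjusted p = 0.0623), and was without Tumour 1 (adjusted p = 0.0122). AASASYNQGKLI, AFMNYNQGKLI, AWMNYNQGKLI, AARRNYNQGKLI and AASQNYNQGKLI were not listed in any tumour, and were at least 1153-fold, 1120-fold, 935-fold, 869-fold and 804-fold lower there than in MP, taking 3 reads per library as the floor (each edgeR adjusted p = 0.0101). They were tested through their MP reads alone. All 83 tested members not listed in any tumour were called lower, so that these calls add nothing to the listing. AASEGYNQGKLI, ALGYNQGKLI and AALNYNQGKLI were also lower in Tumour than in MP, with means of 0.0018, 0.000899 and 0.000128% in Tumour against 0.618, 0.240 and 0.0291% in MP. The call of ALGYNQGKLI was lost without MP 1 and MP 5 together (edgeR adjusted p = 0.0547).

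The members that led the Naive repertoire were rare in tumours as well. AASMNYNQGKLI was listed in Tumour 2 alone, at 0.00475%, against a Naive mean of 1.44% (log2 fold change -10.53 ± 2.41, SE; edgeR adjusted p = 0.0023). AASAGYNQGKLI was listed in Tumours 2 and 4, at 0.0149 and 0.0203%, against 0.922% in Naive (edgeR adjusted p = 0.0117). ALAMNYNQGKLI, ALMNYNQGKLI, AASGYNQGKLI and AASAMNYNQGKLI were not listed in any tumour and were at least 1877-fold, 1258-fold, 1194-fold and 961-fold lower there than in Naive, by the same floor. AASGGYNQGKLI, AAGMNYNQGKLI and AIVNYNQGKLI had 2, 2 and 3 reads over all tumours, against 3188, 393 and 1141 reads over the Naive libraries. Their pooled shares were 2070-fold, 255-fold and 494-fold higher in Naive, with 95% counting intervals of 573 to 17103, 70.2 to 2115 and 169 to 2399 (exact binomial).

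The 39 members called higher in MP than in Naive and the 328 called lower were followed into the tumours, whose reads had no part in those calls. Of the 39, 8 were listed in a tumour, and they took 7.25, 2.84, 1.74, 1.93 and 5.18% of member reads in Tumours 1 to 5. Of the 328, 25 were listed in a tumour, and they took 3.42, 10.0, 0.100, 14.8 and 4.97%. How many of the other CDR3s called were listed in a tumour was not counted. The other member reads of the tumours were of members not called between MP and Naive (45.4 ± 31.5%) or not tested there (44.1 ± 29.2%). Neither list led the tumours, with the MP-high members above the others in Tumours 1, 3 and 5 and below them in Tumours 2 and 4.

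Most member reads of the tumours were of peptides also listed in the young mice. The 94 tumour members that are also in both MP and Naive lists took 56.9, 48.4, 94.3, 67.5 and 73.8% of member reads in Tumours 1 to 5. Among the other CDR3s the shares of those held by both lists were 49.5, 47.0, 47.3, 29.1 and 55.3%. Members were higher in 5 of 5 tumours, by 22.5 ± 19.7 points (SD), with an exact paired p of 0.0625, the smallest that 5 pairs allow. The 111 tumour members in neither list were 44.4% of tumour members, where 59.8% of the other tumour CDR3s were in neither. They took 37.5, 26.8, 5.66, 16.8 and 21.2% of member reads. The other CDR3s in neither list took 27.3, 32.3, 30.3, 54.2 and 23.5% of the other reads. Members were thus above the others in Tumour 1 and below them in the rest.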

How the data were processed

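Reads per TCR alpha CDR3 peptide were measured in 15 libraries, 5 each of Tumour, MP and Naive CD8+ T cells. Per the labels' protocols, Trizol was used for RNA, and libraries came from iRepertoire's arm-PCR, a semi-quantitative multiplex RT-PCR. The authors deposited 1 list of raw read counts per library, with 2 as the lowest count. How reads were aligned and filtered for errors, and whether molecular identifiers were used, is not given in the sources used here. Intervals and floors therefore cover only counting error, and primer bias can shift V segment shares. The sum of a list was taken as its depth.

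Members were found by the end NQGKLI. Library values were compared by exact two-sided permutation tests over all 252 splits (2 times the smaller tail), where 5 against 5 libraries allow a p of 0.00794 at the least, with Benjamini-Hochberg adjustment within each comparison over 6 features, 12 residues, 10 first-residue classes or 6 lengths. Single CDR3s were tested over the whole table, each pair of groups alone, with edgeR 4.0.16 (quasi-likelihood, total reads as library size, 3 or more libraries with 10 or more reads) and called at an adjusted p under 0.05. limma 3.58.1, DESeq2 1.42.0, R 4.3.3, python 3.11.15, numpy 2.4.6, scipy 1.17.1, pandas 2.3.3 and matplotlib 3.10.9 were also used. The edgeR step was tested on simulated counts. The alternatives were TMM, DESeq2, filters of 50 or more reads in 3 or more libraries and of 1 or more reads in 2 libraries, CDR3s under 10 reads left out, weighting by distinct CDR3, thinned member reads, ends of 5 or 7 residues, folding of possible reading errors (a CDR3 1 substitution from one at least 100 times as abundant), the library number as a block, and libraries left out.

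Named were the 10 members with the highest mean share in each group, the 5 largest called folds each way among members listed in both groups, and the members of both frames with a mean of at least 0.05% in a group. The members, lists and tests were chosen with earlier results of these data known.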

Additional observations from a re-analysis of the deposited data

Results flagged for a closer look

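In groups of 5 libraries, a library was marked when its gap to the nearest other exceeded 0.71 of the group's range (Dixon's 95% value). This marked 20 of 106 groups tested. Of these, 9 were single members named for a high mean share in a group, and a member listed in 1 library alone is always marked. The count can therefore not be set against the 1 in 20 that chance would mark. No cause was weighed.

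Tumour 3 stood apart in the read share of members, at 4.14%, with 1.20 to 1.68% in the other tumours. It also stood apart for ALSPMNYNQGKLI (2.07%), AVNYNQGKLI (1.12%), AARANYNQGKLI (0.321%) and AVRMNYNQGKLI (0.216%). Tumour 4 stood apart for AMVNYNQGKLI (0.600%), for AM loops (36.4% of member reads, at most 4.20% in the others) and for tryptophan before YNQGKLI (5.61%, 0 in the others). Tumour 5 stood apart for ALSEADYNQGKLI (0.746%), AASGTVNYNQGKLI (0.285%), loops of 14 residues (19.7% of member reads) and loops of 9 residues (7.92%, 0 in the others). Tumour 1 stood apart for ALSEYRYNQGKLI (0.195%) and for arginine before YNQGKLI (21.6%, at most 5.48% in the others), and Tumour 2 for loops that begin with VL (9.25% of member reads).

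MP 2 stood apart in AF loops (9.51% of member reads, 4.20 to 5.38% in the others), MP 1 in loops of 10 residues (3.88%, 2.45 to 2.77% in the others) and MP 5 in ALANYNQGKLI (1.42%, 0.868 to 0.994% in the others). Naive 5 stood apart in the share of reads with the 8-residue end (63.4%, 61.5 to 61.9% in the others) and in asparagine before YNQGKLI (64.4%), which counts nearly the same reads.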

How the results depend on the processing

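Lower read and distinct shares in Tumour than in either other group, shorter MP than Naive loops and lower MP than Naive entropy kept direction and call under every alternative run, except Tumour minus MP without MP 1 and 5 together. There the read share (-11.1 points), the distinct share (-3.43 points) and the loop length (0.388 residues) missed the threshold, each with an adjusted p of 0.0714 and the smallest unadjusted p that 5 against 3 libraries allow, 0.0357. MP minus Naive, the read share passed without CDR3s under 10 reads (-3.01), without the 10 most abundant CDR3s (-3.46) and without MP 1 and 5 (-2.76). The distinct share was -2.53 without CDR3s under 10 reads and 0.0219 without MP 1 and 5. Weighted by distinct CDR3, the MP minus Naive full end share was -3.32 and leading charge -0.0153, and loop length was 0.178 for Tumour minus MP and -0.0147 for Tumour minus Naive. With each single library left out, the read share ranged from -2.40 to -1.38 (MP minus Naive), the full end share from -16.9 to -3.90 (Tumour minus MP) and from -9.64 to 3.39 (Tumour minus Naive; 0.627 without Tumour 1), leading charge from -0.395 to -0.0948 (Tumour minus MP) and from -0.512 to -0.212 (Tumour minus Naive), and entropy from -1.87 to -1.12 (Tumour minus MP). The cause of these changes was not tested.

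The count of members called higher and lower was 39 and 328 for MP minus Naive, 2 and 92 for Tumour minus MP, and 2 and 448 for Tumour minus Naive. A filter of at least 50 reads gave 115 lower for MP minus Naive, 1 and 48 for Tumour minus MP, and 1 and 140 for Tumour minus Naive, and a filter of at least 1 read in 2 libraries gave 121 and 1145, 8 and 343, and 1661 lower, since fewer or more CDR3s were tested. Without MP 1 and 5 together the counts were 20 higher for MP minus Naive, and 0 higher and 16 lower for Tumour minus MP. TMM gave 1 higher for Tumour minus MP. Leaving out single libraries gave 25 to 48 higher and 259 to 353 lower (MP minus Naive), 0 to 2 higher and 45 to 100 lower (Tumour minus MP), and 1 to 3 higher and 371 to 462 lower (Tumour minus Naive). Where edgeR called 0 higher for Tumour minus MP, 1 member (replicate block, without Tumour 1, or without Tumour 2) or 2 members (without MP 1 and 5) had an unadjusted p under 0.05, and DESeq2 called 2.

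The labels do not say whether MP and Naive libraries of the same number share a mouse. Over 486 CDR3s, the deviations of same-numbered libraries correlated weakly, at 0.0721, 0.0173, 0.000247, 0.0539 and 0.0688, and MP 1 correlated best with Naive 5, at 0.0992. Correlations this weak cannot settle whether libraries were paired, and no pairing was assumed. With the number as a replicate block, edgeR called 22 members higher for MP minus Naive, 0 higher and 24 lower for Tumour minus MP, and 1 higher for Tumour minus Naive. Tumours came from other mice than the MP and Naive libraries. In the Tumour comparisons the number therefore pairs nothing, and changes under the block there have no meaning for the design. Under the block the log2 fold change had the opposite sign for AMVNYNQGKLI (-6.83 against MP and -6.95 against Naive), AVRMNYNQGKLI (-4.10 and -6.76), ADMNYNQGKLI (-1.85 against Naive) and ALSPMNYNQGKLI (-4.08 against Naive).

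The sign also turned for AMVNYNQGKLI without Tumour 4 (-11.03 against MP and -8.24 against Naive), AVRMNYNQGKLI without Tumour 3 (-8.45 against Naive), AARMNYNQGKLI for MP minus Naive without MP 3 (0.016, and -0.43 to 0.016 over single libraries), and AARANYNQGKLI for Tumour minus MP without MP 3 (0.034) or without Tumour 1, 2, 4 or 5 (0.063 to 0.069, and -7.83 to 0.069 over single libraries). For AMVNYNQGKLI and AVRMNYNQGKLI the library left out was the only tumour that listed the member, which set the turn. Over single libraries left out, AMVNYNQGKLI reached 2.58 against MP and 4.80 against Naive, and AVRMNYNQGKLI 3.46 against Naive, at the highest. Of the named members called, 20 of 28, 10 of 17 and 22 of 25 kept the call under all alternatives in the MP minus Naive, Tumour minus MP and Tumour minus Naive comparisons. A read share rests on PCR reads, and a CDR3 below 2 reads is not seen, which limits the count of members shared between libraries. Possible reading errors, CDR3s 1 substitution from a far more abundant one, made 20.0 to 64.3% of distinct members in Tumour, 17.8 to 43.5% in MP and 17.2 to 19.4% in Naive lists. Folding them changed no call of a library value.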
